A study of Mus musculus with 14 samples.

Results

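De novo joint SMAD sites are the regions where peaks of pSMAD1/5/9 and SMAD4 were both listed after BMP6 and neither was listed in control cells. They were selected on the deposited peak lists, as pSMAD1/5/9 peaks of BMP6-stimulated MuSCs that overlapped a SMAD4 peak of the same cells by at least 1 bp and no pSMAD1/5/9 or SMAD4 peak of control cells. Of the 7339 pSMAD1/5/9 peaks after BMP6, 1581 were such sites (21.5%). The presence, signal and rank of SMAD peaks chose these sites, so they are given as a description without a test. H3K27ac, position and sequence did not enter the choice.

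The cells were MuSCs sorted by GFP from female mice of 9 weeks that carry the transgene Tg(Pax7-EGFP)Tajb on a C57BL/6N background, so that the Pax7 promoter marks the cells. They were cultured and starved for 6 h in serum-free medium with 200 ng/mL soluble BMPR1A-Fc, which captures BMPs, after which BMP6 at 100 ng/mL, or its vehicle, was given for 1 h. Control cells shared the transgene, the starvation and the BMPR1A-Fc. CUT&Tag, in which an antibody directs a transposase to its target on chromatin, was made from 100000 cells per library with antibodies against pSMAD1/5/9, SMAD4 and H3K27ac. Each antibody and condition had 2 biological replicates, and how many mice a replicate pooled is not given in the sources used here. The other 2 of the 14 libraries had no primary antibody and were not used here.

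BMP ligands bind receptor complexes that phosphorylate the C-termini of SMAD1, SMAD5 and SMAD9. The phosphorylated SMADs join SMAD4, enter the nucleus and bind GC-rich motifs, while SMAD4 and SMAD3 bind the SMAD box GTCT. In muscle progenitors this pathway holds back differentiation, in part through ID proteins, which block MYOD and other basic helix-loop-helix factors. SMAD4 is shared with the TGF-beta branch of the pathway, so a SMAD4 peak alone does not tell the branches apart.

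The labelled cell type was checked by H3K27ac, a mark of active promoters and enhancers, within 2 kb of the TSS of marker genes. All 10 muscle stem cell markers carried a peak in control and in BMP6-stimulated cells, among them Pax7, Myod1, Cdh15 and Vcam1. Of 6 endothelial markers 1 carried a peak in control cells, of 6 immune markers 2, of 6 Schwann and glial markers 1, and of 6 markers of fibro-adipogenic progenitors 2. Pecam1, Cdh5, Ptprc, Pdgfra and Sox10 had none in either condition. Of 6 smooth muscle and pericyte markers, Acta2, Abcc9 and Notch3 carried a peak in both conditions, whereas Myh11, Rgs5 and Kcnj8 did not.

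The site next to Id1, a classical BMP target that encodes an inhibitor of MYOD, holds the composite SMAD element, a GC-rich motif followed by the SMAD box. In the sequence below, capitals mark GGCGCC or GGAGCC, the same followed by GTCT after 5 bases, the SMAD palindrome GTCTAGAC, the E-box CAGCTG and the AP-1 motif TGACTCA, each on either strand. All sequences are the plus strand of GRCm39, 5′ to 3′, and 200 bases long. The composite element of the Id1 site runs from 152581391 to 152581405 on chromosome 2, 3.23 kb downstream of the TSS and 268 bp from the pSMAD1/5/9 summit. The window also holds a further GC-rich motif and 2 E-boxes. It is shown because it belongs to the second strongest de novo joint site and to the best known target gene.
Id1, chr2:152581298-152581497: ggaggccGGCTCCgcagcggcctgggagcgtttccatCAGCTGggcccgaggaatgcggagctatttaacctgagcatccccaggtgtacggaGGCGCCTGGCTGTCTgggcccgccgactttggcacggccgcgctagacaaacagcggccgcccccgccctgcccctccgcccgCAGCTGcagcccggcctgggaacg

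Composite elements and palindromes were rare in the 200 bp around the summits, where 4 de novo joint sites held the composite and 3 the palindrome. All 6 sites concerned are shown, each named by the gene of the nearest TSS, because they carry the elements that SMAD complexes are known to bind. They were named after their values had been seen. The first 3 hold the palindrome, and Pakap holds both elements next to each other.
Dad1, chr14:54459985-54460184: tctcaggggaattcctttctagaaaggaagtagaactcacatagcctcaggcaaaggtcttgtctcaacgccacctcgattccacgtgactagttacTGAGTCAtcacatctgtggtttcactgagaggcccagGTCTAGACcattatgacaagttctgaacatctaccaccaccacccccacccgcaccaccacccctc
Dnajb12, chr10:59636004-59636203: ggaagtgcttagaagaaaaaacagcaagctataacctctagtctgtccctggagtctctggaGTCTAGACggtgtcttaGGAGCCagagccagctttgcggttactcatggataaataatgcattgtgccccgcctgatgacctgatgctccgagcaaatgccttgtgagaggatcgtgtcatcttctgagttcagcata
Pakap, chr4:57567726-57567925: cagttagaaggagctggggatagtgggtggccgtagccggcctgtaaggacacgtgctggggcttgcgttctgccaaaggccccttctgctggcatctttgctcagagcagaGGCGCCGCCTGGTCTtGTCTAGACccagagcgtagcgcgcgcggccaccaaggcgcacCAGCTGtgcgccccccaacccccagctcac
Rnf181, chr6:72339334-72339533: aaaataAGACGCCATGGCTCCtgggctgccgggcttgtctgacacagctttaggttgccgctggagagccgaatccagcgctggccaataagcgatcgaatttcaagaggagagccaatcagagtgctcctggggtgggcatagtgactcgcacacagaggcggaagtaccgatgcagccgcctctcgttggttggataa
Nfic, chr10:81288201-81288400: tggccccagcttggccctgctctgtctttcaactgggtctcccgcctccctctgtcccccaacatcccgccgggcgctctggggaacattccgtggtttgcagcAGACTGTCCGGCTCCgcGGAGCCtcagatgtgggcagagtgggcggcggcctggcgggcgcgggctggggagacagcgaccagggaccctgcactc
Unc5b, chr10:60654908-60655107: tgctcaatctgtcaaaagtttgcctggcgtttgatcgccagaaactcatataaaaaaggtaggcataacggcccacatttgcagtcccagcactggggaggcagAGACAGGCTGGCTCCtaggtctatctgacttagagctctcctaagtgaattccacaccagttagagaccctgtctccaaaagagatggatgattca
None of these was among the 10 strongest sites. The Dad1 site ranked 2316 among the 7339 pSMAD1/5/9 peaks and the Unc5b site 6779. The Rnf181 and Pakap windows lay at a TSS, those of Dnajb12 and Unc5b in introns, and those of Dad1 and Nfic in intergenic sequence. The Dnajb12 site lay 79.3 kb upstream of the Dnajb12 TSS, so its intron belongs to another gene.

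The summits of the strongest sites are shown for contrast. The Timp1 window, at the strongest site of all, held none of the 5 motifs, and neither did the 200 bp around the Id1 summit. The Id1 window shown above was instead placed on its composite element. The whole Timp1 and Id1 peaks each held 3 GC-rich motifs. The Hlx window held an E-box and an AP-1 motif, and the Spef1l window held 2 AP-1 motifs.
Timp1, chrX:20736185-20736384: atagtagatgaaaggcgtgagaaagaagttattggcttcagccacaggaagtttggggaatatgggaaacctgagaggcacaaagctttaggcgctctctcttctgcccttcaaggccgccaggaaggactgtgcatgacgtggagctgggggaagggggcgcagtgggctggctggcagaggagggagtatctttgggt
Hlx, chr1:184407807-184408006: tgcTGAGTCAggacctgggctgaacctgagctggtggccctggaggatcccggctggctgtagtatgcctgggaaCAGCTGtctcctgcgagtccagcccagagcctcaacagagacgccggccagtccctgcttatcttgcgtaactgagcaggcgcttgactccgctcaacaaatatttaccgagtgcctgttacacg
Spef1l, chr7:139551387-139551586: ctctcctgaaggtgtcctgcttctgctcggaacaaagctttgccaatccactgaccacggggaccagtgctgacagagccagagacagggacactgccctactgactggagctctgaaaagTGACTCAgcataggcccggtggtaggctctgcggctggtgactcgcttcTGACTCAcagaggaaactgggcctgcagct
Windows at 2 muscle and Notch genes are added because they are discussed below. The Myod1 window held 1 GGAGCC and the Heyl window 1 E-box.
Myod1, chr7:46029289-46029488: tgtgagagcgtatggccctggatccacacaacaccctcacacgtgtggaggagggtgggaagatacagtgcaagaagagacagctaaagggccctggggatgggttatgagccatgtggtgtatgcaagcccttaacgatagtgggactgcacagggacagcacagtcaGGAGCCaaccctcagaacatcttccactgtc
Heyl, chr4:123133296-123133495: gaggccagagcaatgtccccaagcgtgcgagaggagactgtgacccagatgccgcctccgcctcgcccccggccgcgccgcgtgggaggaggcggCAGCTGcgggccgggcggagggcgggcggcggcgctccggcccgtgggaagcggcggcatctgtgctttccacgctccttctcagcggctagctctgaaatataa

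The strongest de novo joint site lay at the TSS of Timp1, which encodes an inhibitor of metalloproteinases. Its pSMAD1/5/9 signal, a score without a unit that the authors' peak caller gives, was 68011 in the first replicate column and 41207 in the second. It ranked 23 among the 7339 pSMAD1/5/9 peaks, whereas the next de novo joint site ranked 266. Its SMAD4 peak ranked 640 of 12860, with signals of 27881 and 11022. The nearest control SMAD4 peak lay 60 bp away, so the site was counted as de novo by a narrow margin.

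The second site lay 2.97 kb downstream of the Id1 TSS, from 152580571 to 152582040 on chromosome 2, beyond the end of the gene. It had pSMAD1/5/9 signals of 37224 and 28531 and SMAD4 signals of 38409 and 22019, and its SMAD4 peak ranked 175. A control SMAD4 peak lay 549 bp away. Both antibodies thus placed the Id1 site near the top of the class.

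The other sites among the strongest 10 were nearest to Bcor, Hlx, Spef1l, Sts, Stag2, Ubap2l, Runx1 and Nmt2, at pSMAD1/5/9 ranks between 302 and 553. Sts, Stag2, Ubap2l, Runx1 and Nmt2 had the site at the TSS. The Bcor site, 52.9 kb upstream of the gene of a BCL6 corepressor, had pSMAD1/5/9 signals of 38998 and 24527, but its SMAD4 peak ranked only 7969. The Stag2 site, at the gene of a cohesin subunit, was similar, with a SMAD4 rank of 9422. The Hlx site, 56.9 kb downstream of a homeobox gene, was high for both antibodies, with a SMAD4 rank of 611.

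**Figure D1:**
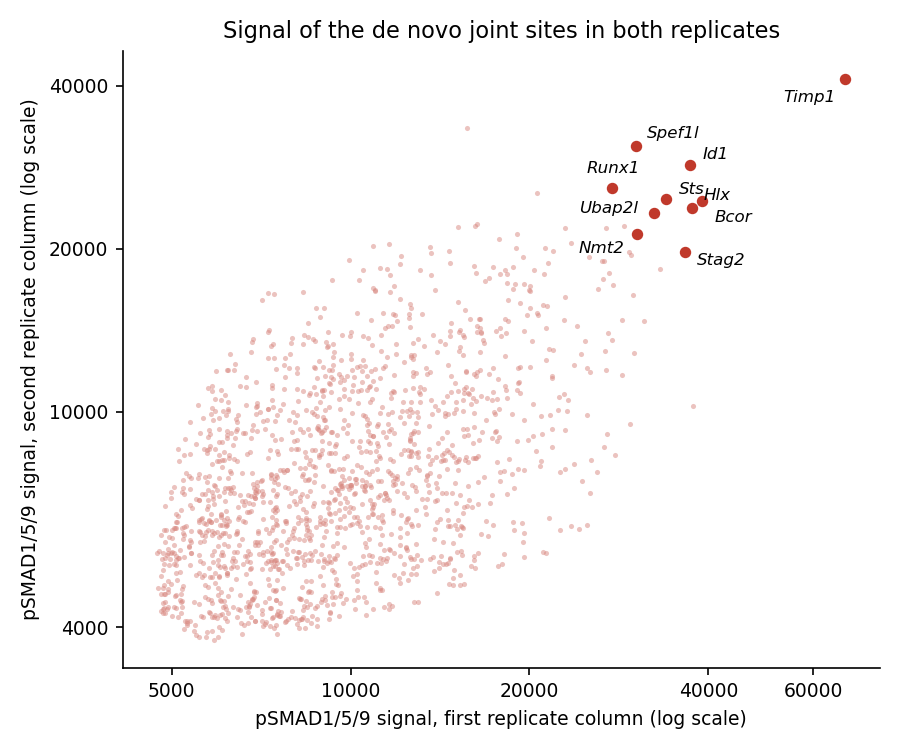
Signal of each of the 1581 de novo joint sites in both replicate columns of the pSMAD1/5/9 list after BMP6 (log axes, score without a unit); dark points are the 10 strongest sites, named by the nearest gene. The Timp1 site stands apart at 68011 and 41207, and the other named sites lie together above the bulk.

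Across the class, the pSMAD1/5/9 signal, summed over both replicate columns, had a median of 17139, with quartiles of 13178 and 22334. The median rank was 4348 of 7339. Spearman's rho between both replicate columns was 0.482 across the 1581 sites and 0.714 across all pSMAD1/5/9 peaks, a description across peaks that share their libraries. The median −log10 of the irreproducible discovery rate (IDR), which measures how well the replicates rank a peak alike, was 1.82. An IDR of 0.01 was passed by 613 sites (38.8%), beside 50.1% of all pSMAD1/5/9 peaks.

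Few de novo joint sites were among the strongest pSMAD1/5/9 peaks. Of 3 bins of equal size by pSMAD1/5/9 rank over all peaks, the strong bin held 257 of them (16.3%), the middle bin 690 (43.6%) and the weak bin 634 (40.1%). When the peaks were cut by rank into 10 bins of equal size, they made up 2.32% of the strongest bin, 31.2% of bin 5 and 20.7% of the weakest bin. The pSMAD1/5/9 peaks that had SMAD4 both before and after BMP6 but no control pSMAD1/5/9 peak, called preloaded here, numbered 3014 and had a median rank of 2514.5. The peaks without any SMAD4 peak or control peak numbered 1456, with a median rank of 5791.5. Median widths followed the same order, with 648 bp at preloaded sites, 534 bp at de novo joint sites and 459 bp at sites without SMAD4.

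**Figure D2:**
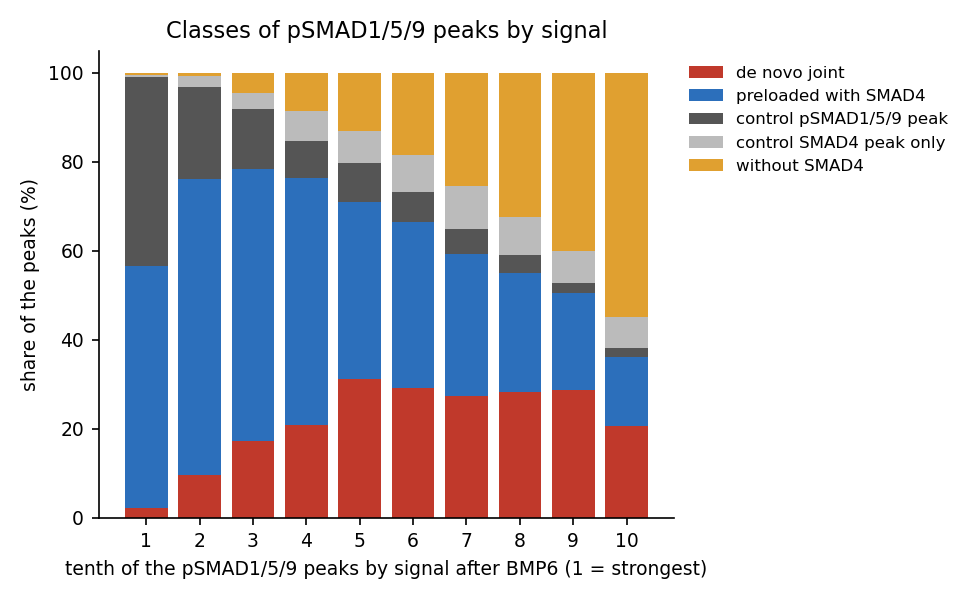
Share of each class among the pSMAD1/5/9 peaks after BMP6, in 10 bins of equal size by signal (bin 1 is the strongest). De novo joint sites make up 2.32% of bin 1 and 31.2% of bin 5, and peaks without SMAD4 make up the greatest share of bin 10.

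SMAD4 and pSMAD1/5/9 summits lay close together at de novo joint sites. The rule required their peaks to overlap and so favoured short distances, which are a description only. The distance from the pSMAD1/5/9 summit to the nearest SMAD4 summit had a median of 79 bp, with quartiles of 35 and 157 bp, and 950 sites (60.1%) had it within 100 bp. At preloaded sites the median was 76 bp and the share within 100 bp was 60.9%. The median overlap with SMAD4 peaks was 390 bp. The SMAD4 peaks at de novo joint sites had a median rank of 5713 of 12860, and those at preloaded sites 2529.5.

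The highest SMAD4 signals of the class were found at sites near Sh3glb1, Akna and Id1. The Sh3glb1 site had SMAD4 signals of 68906 and 36987 and ranked 16 for SMAD4, but 7182 for pSMAD1/5/9. Its SMAD4 summit lay 1426 bp from the pSMAD1/5/9 summit and thus outside the site, which was 420 bp wide. The nearest control SMAD4 peak lay 510 bp away. The Akna site ranked 170 for SMAD4 and 2992 for pSMAD1/5/9, and a control SMAD4 peak lay 90 bp away. Its SMAD4 summit, 576 bp from that of pSMAD1/5/9, also lay outside the site of 330 bp. The Id1 summits were 397 bp apart, in a site of 1470 bp. In all, the summits were more than 500 bp apart at 52 de novo joint sites.

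The margins of the rule were as follows. The nearest control SMAD4 peak was within 100 bp of 46 de novo joint sites (2.91%), within 500 bp of 144 (9.11%) and within 2 kb of 298 (18.8%), and its median distance was 21.4 kb. At 71 sites (4.49%) the SMAD4 peak of BMP6-stimulated cells reached a control SMAD4 peak that the pSMAD1/5/9 peak did not. Overlap with SMAD4 was 50 bp or less at 11 sites. Just outside the rule, 10 preloaded sites overlapped a control SMAD4 peak by 50 bp or less, and 39 sites without SMAD4 had a SMAD4 peak within 100 bp. The lowest −log10 IDR of a de novo joint site was 1.302, beside a threshold of 1.301. Both peaks passed an IDR of 0.01 at 412 sites.

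Beyond the SMADs, nearly all de novo joint sites lay in chromatin that already carried H3K27ac before BMP6. A control H3K27ac peak overlapped 1558 of 1581 sites (98.5%, 95% interval 97.8 to 99.0), beside 97.5% of all pSMAD1/5/9 peaks. The share was 99.9% at preloaded sites, a difference of -1.32 percentage points for de novo joint minus preloaded sites (-2.05 to -0.796). By pSMAD1/5/9 signal, this difference was -0.321 points (-2.10 to 0.129) in the strong bin and -0.380 (-1.29 to 0.254) in the middle bin. In the weak bin it was -2.655 points (-4.27 to -1.31). The share was 89.5% at sites without SMAD4 (difference 9.05 points, 7.41 to 10.8). The size of the latter difference changed with the sites compared. It was 2.65 points (1.42 to 4.01) on autosomes, 1.27 points (0.273 to 2.60) with an IDR of 0.01 in all 4 SMAD lists and 2.11 points (0.405 to 4.13) with it in the BMP6 SMAD lists only. An IDR of 0.01 in all 4 SMAD lists also dropped control peaks above it, so sites with such a control peak could enter. The intervals are Wilson's for a share and Newcombe's for a difference. They cover counting error over peaks, which are not replicates of a condition, and not the error between the 2 biological replicates.

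An H3K27ac peak that was listed only after BMP6 was found at 18 de novo joint sites (1.14%), beside 0.886% of all pSMAD1/5/9 peaks. The share was 0.133% at preloaded sites (difference 1.01 points, 0.540 to 1.66) and 2.82% at sites without SMAD4 (difference -1.68 points, -2.74 to -0.695). Of the 18 sites, 13 were in the weak bin by pSMAD1/5/9 signal and 0 lay at a TSS. In the weak bin, the share was 2.05% at de novo joint sites and 0.184% at preloaded sites. In the strong bin it was 0.389% and 0.0680%, and there the interval of the difference spanned 0. When both BMP6 SMAD lists were held to an IDR of 0.01, the differences from preloaded sites in control H3K27ac and in H3K27ac after BMP6 only were -0.375 and 0.375 points, and both intervals spanned 0. With an IDR of 0.01 in all 4 SMAD lists they were -0.423 points (-1.08 to -0.0863) and 0.423 points (0.0863 to 1.08). The new H3K27ac peaks were weak, with ranks between 24528 and 73515 of 78050.

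The strongest of these 18 sites were nearest to Ube2t, Hes1 and Eya2. The Hes1 site lay 8.02 kb upstream of the gene, which encodes a Notch effector that represses Myod1, and had pSMAD1/5/9 signals of 11195 and 11563. Its H3K27ac peak ranked 48843 after BMP6 and was absent from the control list. No H3K27ac peak in either condition was found at 5 sites (0.316%), beside 1.59% of all pSMAD1/5/9 peaks. The share was 0% at preloaded sites and 7.69% at sites without SMAD4. The strongest of the 5 sites lay in introns, near Gse1, Wdr18 and Crispld2, at pSMAD1/5/9 ranks of 5701, 5788 and 5977.

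Where H3K27ac was listed in both conditions, the position of its peak among all H3K27ac peaks was compared between classes. The strongest overlapping H3K27ac peak of each site was placed by its rank as a percent of its own list, because nothing states that signals can be compared from list to list. The lists hold 67790 peaks in control cells and 78050 after BMP6, so a higher position does not show a higher level of the mark. It stood higher after BMP6 at 1077 of 1557 de novo joint sites (69.2%), beside 63.5% of all pSMAD1/5/9 peaks and 62.3% at preloaded sites. The difference from preloaded sites was 6.83 points (3.93 to 9.67), and that from sites without SMAD4 was 3.98 points (0.517 to 7.44). By the rank number itself, the shares were lower, with 57.3% of de novo joint sites, 51.9% of all pSMAD1/5/9 peaks, 51.4% of preloaded sites and 52.1% of sites without SMAD4. The differences were then 5.91 points (2.86 to 8.93) from preloaded sites and 5.20 points (1.52 to 8.85) from sites without SMAD4. This measure was chosen after its values had been seen.

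The starting level of H3K27ac moved with this result. Control H3K27ac at de novo joint sites was lower, with a median position in the top 10.2% of the control list against the top 5.95% at preloaded sites. With sites split into 3 bins by control H3K27ac, from high to low, the rank was higher after BMP6 at 46.8%, 69.1% and 81.8% of de novo joint sites. At preloaded sites the shares were 45.9%, 67.9% and 79.2%, and all 3 intervals of the difference spanned 0. Within these bins no difference from preloaded sites was detectable. From sites without SMAD4 the differences were 0.340 points (-7.66 to 8.30), 10.2 points (3.68 to 16.6) and 6.70 points (2.33 to 11.03).

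A stricter count asked that each of the 2 replicate columns after BMP6 ranked higher than each of the 2 control columns. It was met at 411 de novo joint sites (26.4%), beside 22.4% of all pSMAD1/5/9 peaks, and the opposite was found at 82 sites (5.27%), beside 7.35%. These shares too moved with control H3K27ac. In the same 3 bins, from high to low, the count was met at 9.21%, 18.6% and 41.9% of de novo joint sites and at 9.49%, 22.9% and 39.5% of preloaded sites. The opposite was found at 10.5%, 4.59% and 2.81% of de novo joint sites and at 13.7%, 4.70% and 3.18% of preloaded sites. The Id1 site was one of the first. Its H3K27ac peak ranked 883 and 99 in the columns after BMP6 and 5177 and 3858 in the control columns, and the consensus rank rose from 4470 of 67790 to 132 of 78050. At Bcor the ranks were 201 and 312 after BMP6 and 1125 and 1084 in control cells. At Snai2, which encodes a zinc finger repressor, they were 3538 and 2935 after BMP6 and 9734 and 8797 in control cells. At Id1, Bcor and Snai2 both columns after BMP6 thus ranked above both control columns.

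At Myod1 and Itga7, which encode the myogenic master regulator and an integrin of muscle cells, the replicates overlapped. The Myod1 site lay 3.52 kb downstream of the TSS, and its H3K27ac peak ranked 6932 and 513 after BMP6 and 8182 and 4128 in control cells. The Itga7 site, in an exon 4.89 kb downstream of the TSS, ranked 1668 and 88 after BMP6 and 2067 and 738 in control cells. At the X-linked gene Flna, which encodes an actin crosslinker, ranks were lower after BMP6, with 112 and 725 against 266 and 15, and these overlapped too.

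**Figure D3:**
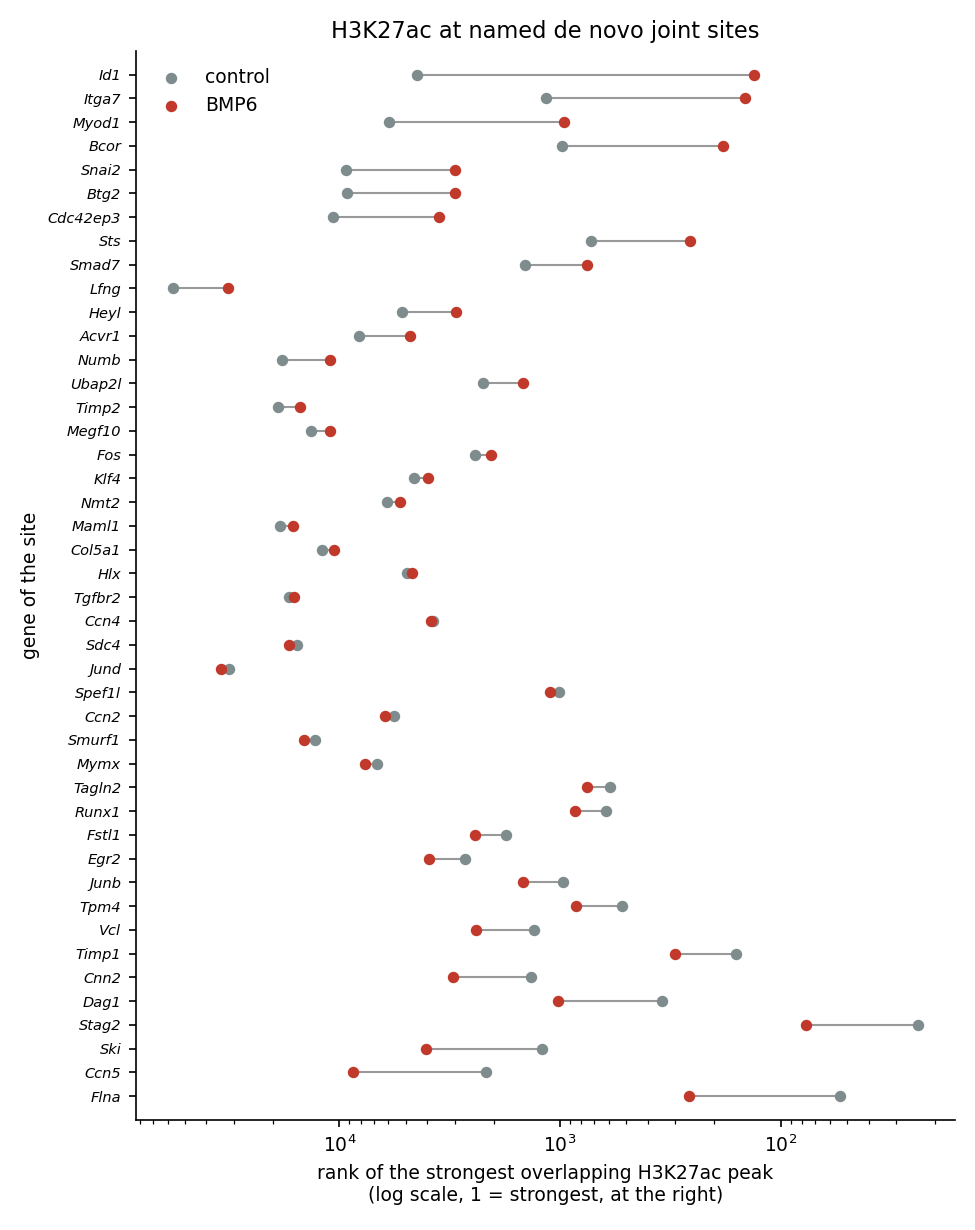
Rank of the strongest H3K27ac peak at named de novo joint sites in control cells (grey) and after BMP6 (red), on a log axis with the strongest at the right. The Id1 site moves most, from 4470 to 132, and the Flna site moves most in the other direction.

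De novo joint sites were spread over promoters, introns and intergenic sequence. With the authors' order of categories, 563 sites (35.6%, 33.3 to 38.0) overlapped the 2 kb around a TSS, beside 33.8% of all pSMAD1/5/9 peaks. A further 70 (4.43%) lay in exons, 436 (27.6%) in introns and 512 (32.4%) in intergenic sequence. The share at a TSS was 33.1% at preloaded sites (difference 2.47 points, -0.414 to 5.38) and 31.5% at sites without SMAD4 (difference 4.15 points, 0.792 to 7.50). On autosomes the latter difference was 1.957 points, with an interval that spanned 0. The median distance from summit to the nearest TSS was 11.2 kb at de novo joint sites.

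Sites at a TSS and elsewhere differed in base composition. The median GC content of the 200 bp around the summit was 65.5% at a TSS and 53.0% elsewhere, and the ratio of observed to expected CpG was 0.790 and 0.220. Their median pSMAD1/5/9 ranks were 4442 and 4284.5, and their median widths 540 and 526.5 bp.

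The X chromosome held 52 de novo joint sites (3.29%), beside 5.01% of all pSMAD1/5/9 peaks. Sites without SMAD4 were on the X chromosome more often, at 15.6% (difference -12.3 points, -14.4 to -10.3), and preloaded sites less often, at 1.92% (difference 1.36 points, 0.414 to 2.45). With an IDR of 0.01 in all 4 SMAD lists the difference from sites without SMAD4 was -3.78 points (-6.26 to -1.53), and with it in the BMP6 SMAD lists only -5.53 points (-9.16 to -1.99). The difference from preloaded sites was 2.52 points (0.713 to 5.06) in the last setting. The X chromosome nonetheless carried 4 of the 10 strongest de novo joint sites, those at Timp1, Bcor, Sts and Stag2. All 52 sites overlapped a control H3K27ac peak. The comparison of chromosomes was chosen after its values had been seen. On autosomes, 1506 of 1529 sites (98.5%) overlapped a control H3K27ac peak.

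Other pSMAD1/5/9 peaks lay within 20 kb of some de novo joint sites, while others were alone. Within 20 kb of the summit, 284 (17.96%) had another de novo joint site and 517 (32.7%) had a pSMAD1/5/9 peak that was preloaded or present in control cells. No other pSMAD1/5/9 peak of any kind was found within 20 kb of 827 sites (52.3%), beside 49.9% of all pSMAD1/5/9 peaks, 45.2% of preloaded sites and 63.9% of sites without SMAD4. Within 5 kb, 1133 sites (71.7%) were alone, beside 69.98% of all pSMAD1/5/9 peaks, 65.6% of preloaded sites and 82.6% of sites without SMAD4. These shares are a description without a test.

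E-boxes, GC-rich SMAD motifs and AP-1 motifs were the most frequent of the motifs searched besides the GC box. E-boxes of the form CAGCTG, to which MYOD and related factors bind, were found in the 200 bp around the summit of 477 de novo joint sites (30.2%, 28.0 to 32.5), beside 31.1% of all pSMAD1/5/9 peaks. GGCGCC or GGAGCC was found at 498 sites (31.5%, 29.3 to 33.8), beside 30.2%, and the AP-1 motif TGACTCA at 253 (16.0%, 14.3 to 17.9), beside 15.5%. At least 1 of these 3 was present at all but 613 sites (38.8%). More than 1 kind was present at 239 sites. A match is a description of the sequence and not a site of binding, and motifs were searched on both strands.

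Location went with the motifs. Outside the 2 kb around a TSS, 38.1% of de novo joint sites held an E-box and 22.3% an AP-1 motif, and at a TSS 15.8% and 4.62%. GGCGCC or GGAGCC was found at 45.5% of sites at a TSS and 23.8% elsewhere, and the GC box GGGCGGG, bound by SP and KLF factors, at 41.0% and 5.89%. GC content moved with these shares, as given above, and its part in them was not tested.

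E-boxes, AP-1 motifs and GC-rich motifs were denser near the summit than at the edge of the 500 bp examined on either side. For E-boxes, de novo joint sites had 2.01 matches per kb within 50 bp of the summit and 0.569 between 450 and 500 bp. The AP-1 motif fell from 0.923 to 0.196 matches per kb over the same range, and GGCGCC or GGAGCC from 2.16 to 1.303. The RBPJ motif changed little, with 0.481 and 0.449 matches per kb. The decline was not particular to de novo joint sites. E-boxes fell from 2.27 to 0.693 matches per kb at preloaded sites and from 1.79 to 0.501 at sites without SMAD4. The AP-1 motif fell from 1.05 to 0.173 and from 0.941 to 0.110 in these 2 classes. All these densities are a description without a test.

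**Figure D4:**
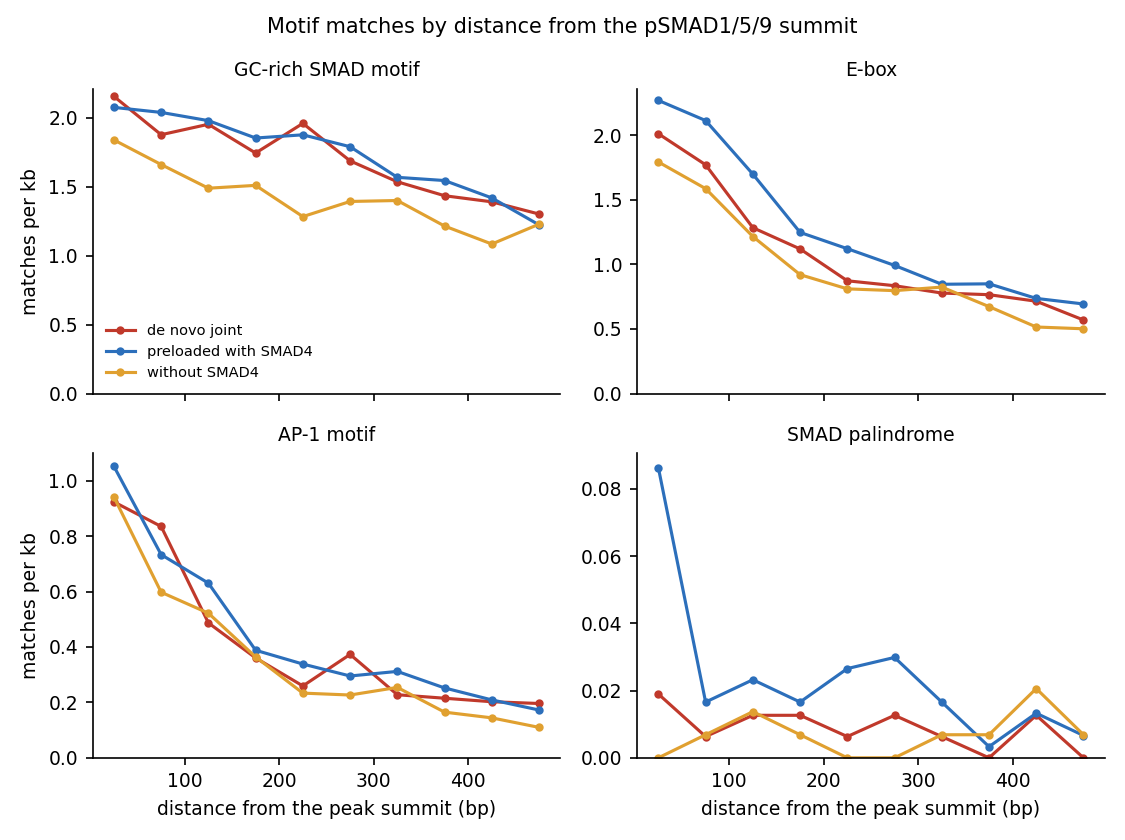
Matches per kb of 4 motifs by distance from the pSMAD1/5/9 summit, in bins of 50 bp, for de novo joint sites, preloaded sites and sites without SMAD4. E-boxes at de novo joint sites fall from 2.01 per kb near the summit to 0.569 at 450 to 500 bp, and the palindrome has 26 matches within 50 bp of the summit at 3014 preloaded sites and 3 at 1581 de novo joint sites.

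The SMAD palindrome GTCTAGAC, which joins 2 SMAD boxes, was less frequent at de novo joint sites than at preloaded sites. It was found at 3 of 1581 sites (0.190%), beside 0.518% of all pSMAD1/5/9 peaks, and at 30 of 3014 preloaded sites (0.995%). The difference from preloaded sites was -0.806 points (-1.25 to -0.334), and -0.802 points (-1.42 to 0.378) with an IDR of 0.01 in the BMP6 SMAD lists only. Of 1456 sites without SMAD4, 1 held the palindrome (0.0687%), a difference of 0.121 points (-0.222 to 0.492). E-boxes were also less frequent than at preloaded sites, with a difference of -3.60 points (-6.40 to -0.758), and of -4.12 points (-7.77 to -0.416) outside the 2 kb around a TSS. With an IDR of 0.01 in all 4 SMAD lists, or in the BMP6 SMAD lists only, the difference in E-boxes was -2.66 points (-6.31 to 1.06) or -4.18 points (-8.94 to 0.888), and both intervals spanned 0. This difference was -9.01 points in the strong bin by pSMAD1/5/9 signal, and -2.34 and -0.234 in the middle and the weak bin, where the intervals spanned 0. For GGCGCC or GGAGCC the difference from preloaded sites was 0.444 points (-2.36 to 3.29).

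Sites without SMAD4 held fewer motifs than de novo joint sites for 3 of the 11 sequences searched. E-boxes were at 26.3% of them (difference 3.87 points, 0.659 to 7.05), GGCGCC or GGAGCC at 27.1% (4.44 points, 1.20 to 7.66) and GGGCGGG at 13.3% (5.08 points, 2.48 to 7.66). On autosomes the difference in E-boxes was 2.59 points (-0.845 to 5.98), and that in GGCGCC or GGAGCC 2.61 points (-0.854 to 6.03). With an IDR of 0.01 in all 4 SMAD lists the interval excluded 0 only for GGCGCC or GGAGCC, at 5.42 points (0.769 to 9.96), and with it in the BMP6 SMAD lists only for none of the 3. The composite element was at 4 de novo joint sites (0.253%), beside 0.286% of all pSMAD1/5/9 peaks, and the whole peaks, which are wider, held it at 10 sites. The Id1 site is one of these 10. Whole peaks of other classes were not searched, so this count has no background and is a description only. The GC box GGGCGGG was at 18.4% of de novo joint sites, beside 18.3% of all pSMAD1/5/9 peaks, and outside the 2 kb around a TSS its difference from sites without SMAD4 was 1.08 points (-0.900 to 3.08).

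The other motifs stood near their background at de novo joint sites. The RBPJ motif ATGGGAA or GTGGGAA, through which Notch acts, was at 8.48% of sites, beside 8.45% of all pSMAD1/5/9 peaks. The TEAD motif ACATTCC was at 5.25%, beside 5.41%, and the RUNX motif TGTGGTT at 7.72%, beside 7.13%. The ETS motif CCGGAAG was at 3.98%, beside 4.01%, and the CRE TGACGTCA at 1.14%, beside 0.927%. All intervals of their differences from both other classes spanned 0.

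**Figure D5:**
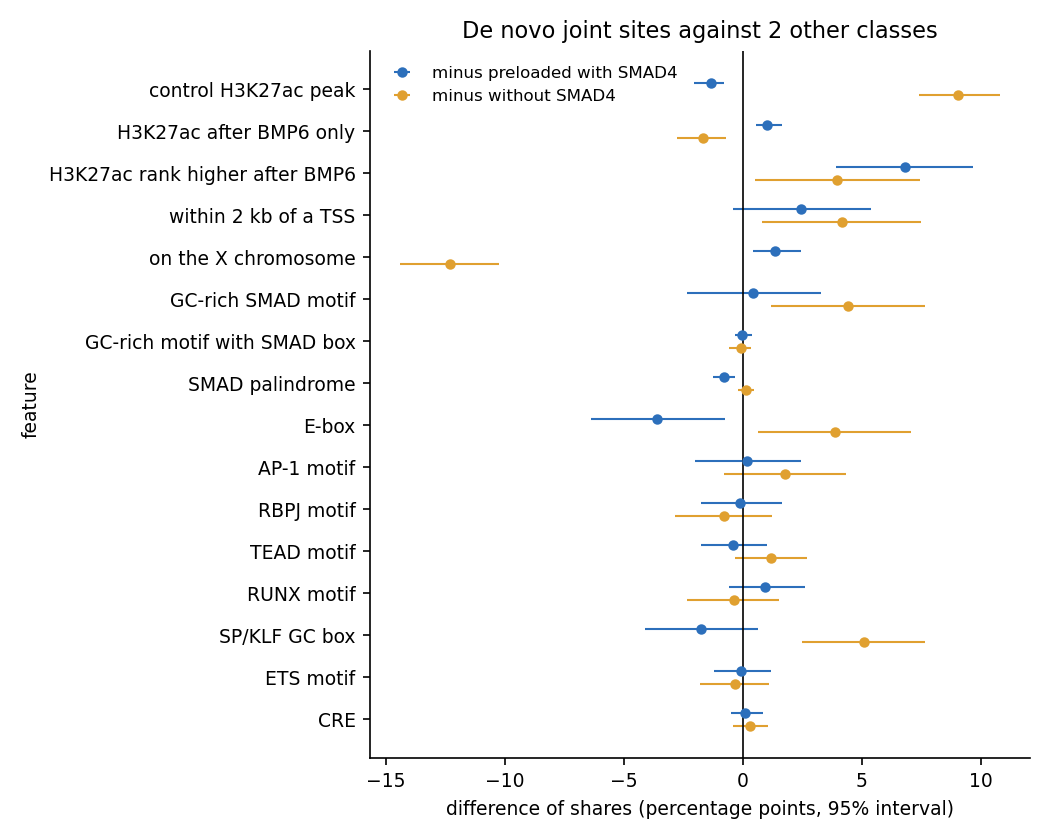
Share of each feature at de novo joint sites minus that at preloaded sites (blue) and at sites without SMAD4 (yellow), in percentage points with Newcombe 95% intervals that cover counting error over peaks. Against sites without SMAD4, the X chromosome stands at -12.3 and control H3K27ac at 9.05 points, and the latter is 2.65 points on autosomes.

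In all, 32 differences were computed, and 14 of the 95% intervals excluded 0. With intervals at a level of 99.8%, which allow for these 32 comparisons only, 7 did so. These were control H3K27ac and H3K27ac after BMP6 only against both classes, the H3K27ac rank against preloaded sites, and the X chromosome and GGGCGGG against sites without SMAD4. The rank, the X chromosome and H3K27ac after BMP6 only against sites without SMAD4 were not planned beforehand. Both H3K27ac peak measures overlap, because a peak after BMP6 only requires that none was listed in control cells. Within bins of control H3K27ac, the rank showed no detectable difference from preloaded sites. On autosomes, the GGGCGGG interval at the 99.8% level was -0.613 to 8.31 points. At that level, H3K27ac after BMP6 only against sites without SMAD4 had an interval of -3.50 to -0.0596 points over all sites. On autosomes it was -3.19 to 0.367 points and spanned 0. The palindrome and the E-box did not pass at that level.

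De novo joint sites lay in the body or within 20 kb of 2006 of 21757 protein-coding genes (9.22%), and any pSMAD1/5/9 peak did so at 6322 genes (29.1%). Of the 2006 genes, 1760 had 1 site, 200 had 2 and 46 had 3 or more. At 1162 of these genes (57.9%) no preloaded pSMAD1/5/9 peak, and none present in control cells, lay within the same distance. Sites at a gene numbered 1292 (81.7%), and neighbouring genes can share a site. The shares of 57.9% and 81.7% are not set beside those of other classes, so they are a description only. Zbtb7c had 5 sites, of which 3 lay beyond its end. Crip1, Crip2 and Mta1, which are neighbours and share their 4 sites, Gse1, Irf2bp2, Plxnd1, Smad7 and Zmiz1 had 4.

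The gene lists that follow were chosen with earlier results of these data known. They are described by counts beside the shares of all genes, which were 9.22% for a de novo joint site and 29.1% for any pSMAD1/5/9 peak. Of 32 genes of BMP and TGF-beta receptors, SMADs and their regulators, 13 (40.6%) had a de novo joint site, and 19 (59.4%) any pSMAD1/5/9 peak. Of 30 BMP target transcription factors, 10 (33.3%) had a de novo joint site and 21 (70.0%) any pSMAD1/5/9 peak. Of 32 Notch pathway genes, 5 (15.6%) and 16 (50%) did, and of 30 myogenic regulators and muscle structure genes, 13 (43.3%) and 22 (73.3%). Of 24 AP-1 and immediate early genes, 9 (37.5%) and 21 (87.5%) did, of 24 extracellular matrix and CCN genes, 7 (29.2%) and 15 (62.5%), and of 20 cytoskeleton, adhesion and migration genes, 9 (45.0%) and 17 (85%). Every list thus also stood above all genes for any pSMAD1/5/9 peak, and nothing particular to de novo joint sites was tested.

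Among receptors and regulators of the pathway, Smad7, which encodes an inhibitory SMAD that feeds back on the receptors, had 4 sites, 3 in introns and 1 in an exon. The strongest lay 8.36 kb downstream of the TSS and had signals of 25276 and 11829. Acvr1 and Tgfbr2, a type I BMP receptor and the type II TGF-beta receptor, had their strongest site in an intron, with signals of 11126 and 8624 at Acvr1 and of 15208 and 8176 at Tgfbr2. Smurf1, which encodes a ubiquitin ligase for SMADs, had a site 0.899 kb downstream of the TSS, with signals of 12996 and 8426. The Fstl1 site, at the gene of a secreted follistatin-like protein, ranked 2686. Acvr1, Tgfbr2 and Fstl1 had no preloaded site and no site present in control cells within 20 kb, whereas Smad7 and Smurf1 had such a site.

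Of the target transcription factors, Id1 and Runx1 had the strongest sites, followed by Heyl, Hes1, Junb and Snai2. Id1, Runx1, Heyl, Hes1 and Junb also had a preloaded site or a site present in control cells in the gene body or within 20 kb. The Runx1 site had signals of 27503 and 25904 and a summit 2.26 kb downstream of the TSS. The Heyl site lay in an intron, 6.05 kb downstream of the TSS, with signals of 18304 and 17284. The Junb site at the TSS had signals of 9079 and 9375, and the Snai2 site at the TSS 10819 and 7252. At Snai2 the nearest control SMAD4 peak was 546 kb away and no other class of joint site lay within 20 kb, whereas at Junb a control SMAD4 peak lay 0.957 kb away.

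The Notch pathway genes with a de novo joint site were Lfng, Maml1, Hes1, Heyl and Numb. Hes1, Heyl and Numb also had a preloaded site or a site present in control cells within 20 kb, whereas Lfng and Maml1 did not. Lfng, which encodes a glycosyltransferase that modifies Notch receptors, had 3 sites and no preloaded site. Its strongest was at the TSS, with signals of 10380 and 12171, and the nearest control SMAD4 peak was 96.7 kb away. The sites counted for Maml1 and Numb lay nearer to the TSS of another gene, Ltc4s and Papln, at ranks of 5046 and 6689.

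Among the muscle genes, Sdc4, Itga7 and Myod1 had the strongest sites, with ranks of 853, 1250 and 1267. All of them also had a pSMAD1/5/9 peak within 20 kb that was preloaded or present in control cells. Sdc4 encodes a syndecan of MuSCs, and its site had pSMAD1/5/9 signals of 26603 and 17597. The Myod1 site had signals of 21120 and 15746 for pSMAD1/5/9, but its SMAD4 peak was near the end of the list at rank 12438, with signals of 2222 and 1595. The peaks overlapped by 18 bp, with summits 694 bp apart, so that this was one of the 11 sites with the least overlap. Myod1 had 2 de novo joint sites, and Itga7 and Megf10 had 3 each. The sites counted for Dag1 and Mymx were nearest to Bsn and Hsp90ab1.

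Sites at a TSS were found at several immediate early genes. The Fos site lay 2 bp downstream of the TSS and had signals of 15015 and 6174, and the Klf4 site lay 0.297 kb upstream, with signals of 14649 and 4802. In the second replicate column the Fos and Klf4 sites ranked 5194 and 6478, and in the first 2341 and 2433, so both sites were higher in the first column than in the second. The Egr2 site was nearest to Ado and had signals of 16771 and 13399.

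Of the matrix and cytoskeleton genes, Timp1 and Ccn2 had the strongest sites. Both genes also had a pSMAD1/5/9 peak within 20 kb that was preloaded or present in control cells. The Ccn2 site, 0.362 kb downstream of the TSS of a matricellular protein, had pSMAD1/5/9 signals of 18214 and 11134 and SMAD4 signals of 29093 and 15282. A control SMAD4 peak lay 210 bp away. Sites were listed at the TSS of Cnn2, Flna and Tpm4, which encode actin-binding proteins, at ranks between 3100 and 3332. At Tagln2 and Cdc42ep3 they lay in introns. The site counted for Vcl, which encodes an adaptor of focal adhesions, was nearest to the TSS of Ap3m1 and ranked 2773. Of the 9 cytoskeleton genes with a site, only Flna and Cdc42ep3 had no preloaded site or site present in control cells within 20 kb.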

How the data were processed

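CUT&Tag was performed on cultured MuSCs for pSMAD1/5/9, SMAD4 and H3K27ac, with 2 biological replicates per antibody and condition. The authors brought the libraries of each antibody to the same number of reads, aligned these to GRCm39 and called peaks in each replicate with JAMM, using its filtered peaks for the SMADs and all peaks for H3K27ac. Bowtie2 2.5.4, SAMtools 1.21 and bedtools 2.31.1 are named in the submitters' processing notes. The deposited signal is a score of the peak caller, given per replicate column and for the consensus, and was used only for ranks within a list and as a description. The deposited −log10 values are those of the IDR, by which the authors ranked peaks on signal and kept a consensus at a threshold of 0.05. All 6 lists are such consensus lists, with 1 share per class and list, and no test across samples was made. The replicate columns cover consensus peaks only and were compared as ranks. Read counts per peak are not part of the lists and were not used.

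Peaks overlapping by at least 1 bp were joined, and summits, widths and gaps were read from the lists. Genes were the 21757 protein-coding genes of the GENCODE annotation for GRCm39, each with its canonical transcript. Peaks were assigned to a window of 2 kb upstream and downstream of a TSS, then to exons, introns or intergenic sequence. A site was counted at a gene when it overlapped the gene body or 20 kb on either side. Motifs were searched on both strands in the 200 bp around the summit. Shares have Wilson intervals and differences of shares Newcombe intervals at 95%. Scripts were tested on simulated data and used Python 3.11.15, numpy 2.4.6, pandas 2.3.3, scipy 1.17.1, pysam 0.24.0 and matplotlib 3.10.9.

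Sites and genes were named by a rule. It took the 10 strongest sites, up to 6 genes per list with the strongest sites, the genes with the most sites, the 3 highest SMAD4 signals, and the 3 strongest sites without H3K27ac or with H3K27ac only after BMP6. The classes, lists and comparisons were chosen with earlier results of these data known. Alternatives changed the IDR threshold, the overlap, the distance to control peaks, the replicate column, the TSS window, the gene assignment, the chromosomes and, after the data had been seen, the scale of the H3K27ac rank.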

Additional observations from a re-analysis of the deposited data

How the results depend on the processing

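No paired analysis was possible because each deposited list is a consensus of both replicates and its replicate columns carry no number. Of 382 values under alternatives, 342 kept their call, and the cause of the other changes was not tested. A difference kept its call when its interval still excluded 0 in the same direction. It also did so when its interval still spanned 0, and its sign could then change. A count kept its call within a factor of 1.5. De novo joint sites numbered 946 with an IDR of 0.01 in all 4 SMAD lists and 412 with it in the BMP6 SMAD lists only, and their genes 1266 and 578. The first setting also dropped control peaks, so the 946 include sites that overlap a control peak of the deposited lists. It is therefore stricter for BMP6 peaks but looser for the exclusion by control peaks. Genes numbered 592 with a promoter region of 1.5 kb before and 0.5 kb after the TSS, and 1333 by the nearest TSS. Under the IDR of 0.01 in the BMP6 SMAD lists only, the intervals against preloaded sites spanned 0 for control H3K27ac (-0.375 points) and for H3K27ac after BMP6 only (0.375 points). With an overlap of 50% of both peaks, the difference in H3K27ac after BMP6 only from sites without SMAD4 was -0.880 points and its interval spanned 0.

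The TSS share was above that of preloaded sites, with intervals that excluded 0, at an overlap of 50% (3.66 points), when control peaks within 500 bp or 2 kb excluded a site (3.54 and 5.39 points), with a window of 0.5 kb (2.94 points) and by the summit (2.96 points). Against sites without SMAD4 its interval spanned 0 with an IDR of 0.01 in all 4 lists (0.0523 points) or in the BMP6 SMAD lists (3.15 points), and on autosomes (1.957 points). The H3K27ac rank, added with its alternatives after the data had been seen, differed from sites without SMAD4 by 2.91 and 2.77 points under those 2 IDR settings and by 2.07 points at the 50% overlap, with intervals that spanned 0. By single H3K27ac replicate columns it was 2.56 points (columns 1 and 1), 1.212 (2 and 1) and 1.41 (2 and 2), and by peak positions of a single SMAD replicate column it ranged from 3.26 to 3.47 points, with an interval that spanned 0 for the second column. The number of motifs whose interval excluded 0 was 2 against preloaded sites, 2 with an IDR of 0.01 in all 4 lists, where TGACTCA took the place of the E-box, and 0 with an IDR of 0.01 in the BMP6 SMAD lists. Against sites without SMAD4 it was 3, and 1, 0 and 1 with an IDR of 0.01 in all 4 lists, in the BMP6 SMAD lists, and on autosomes. The difference of TGACTCA from preloaded sites turned to -3.91 points (-6.72 to -0.972) with an IDR of 0.01 in all 4 lists, and that of GGGCGGG from sites without SMAD4 to -0.685 points with it in the BMP6 SMAD lists. Positions of a single replicate column gave 1581 to 1589 sites and 2002 to 2005 genes. These settings only changed the borders of consensus peaks that both replicates had already passed. They cannot show what 1 replicate alone would give.

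Peaks are present or absent by a threshold, so a control peak just below it counts as none, and the lists give no read counts per peak. Each share has 1 value per consensus list, so the spread between replicates entered only through their columns, and all intervals are for counting error over peaks.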
